A study of Danio rerio with 4 samples.

Results

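In chromatin from heat-shocked zebrafish embryos, Tbx6myc peaks that lay in loci of exactly 2 were described by their spacing, their scores and their widths. Tbx6myc is a myc-tagged Tbx6, and its sites were mapped by chromatin immunoprecipitation and sequencing with an anti-myc antibody. A Tbx6myc peak was kept where it lay on a numbered chromosome and shared no base pair with a wild-type peak, and neighbouring peaks were joined where the gap between their edges was 10000 bp or less. Of the 3778 peaks that remained, 698 (18.5%) lay in 349 loci of exactly 2 peaks, out of 3997 deposited peaks in all. A further 2752 peaks stood alone and 328 lay in 98 loci of 3 or more. The pairs were thus chosen by the called positions of the peaks on the assembly Zv9, and their number and spacing are given here as a description.

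Tbx6, a T-box protein, is known for its part in the presomitic mesoderm, which is divided into somites along the trunk. T-box proteins recognise a short DNA element, and enhancers of segmentation genes can carry several such elements close together. A gene can be served by more than 1 enhancer, so neighbouring peaks are often examined as possible parts of the same regulatory region. The lists hold intervals without sequence or gene names, and the gene tables at hand are on another assembly, so each locus is named by its position.

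The transgenic group carried Tg(hsp70l:tbx6Myc)v8, in which a heat-shock promoter drives tagged tbx6 throughout the embryo, so a peak need not be a site of endogenous Tbx6. The wild-type group, labelled Weslyan University wild type, carried no tagged protein. Both groups were whole embryos raised at 28.5 °C, taken at the stage labelled 10S and heat-shocked for 1 h at 37 °C, and both received the anti-myc antibody. The transgenic list merges 2 ChIP libraries with 2 inputs and the wild-type list rests on 1 ChIP library with 1 input. The samples at hand list only 1 ChIP library and 1 input for each group. How the 2 transgenic libraries were merged is not given here, and the widths, gaps and scores all rest on it. No replicate lists were used, so no value has an error between replicates, and sequencing depth is unknown. Each peak's score was given by the authors as −10 log10 of a p-value, averaged in the transgenic list, so a higher score stands for a smaller p-value. A ratio of scores is thus a ratio of log p-values and not a fold difference in signal. Stronger and weaker here mean a higher and a lower score. Intervals around a median or a share are 95% binomial intervals over loci, peaks or neighbouring gaps and cover counting error only. The peaks of a locus enter together and a peak can enter 2 neighbouring gaps, so intervals over peaks or gaps can be too narrow.

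The peaks of a pair lay a few kilobases apart, with the largest numbers at very short gaps and between 2 and 4 kb. The median gap was 3233 bp (95% interval 2928 to 3602 bp, 349 pairs), with quartiles of 1888 and 6399 bp and a range from 16 to 9989 bp. Midpoints lay 3824 bp apart at the median. In 38 pairs (10.9%) the gap was 500 bp or less, and in 15 of these it was 100 bp or less. Between 0.5 and 1 kb there were 16 pairs and between 1 and 2 kb 41. In classes of 1 kb, counts were highest between 2 and 3 kb, with 66 pairs, followed by 54 under 1 kb and 47 between 3 and 4 kb. For each kb of gap length, the 38 pairs up to 500 bp were denser than any of these. Together the gaps of 2 to 4 kb made up 113 pairs (32.4%, interval 27.7 to 37.5%), or 56.5 pairs for each kb of gap length, against 23.5 for each kb from 4 to 10 kb. Of the next-neighbour gaps inside loci of 3 or more peaks, 59 of 230 (25.7%, interval 20.4 to 31.7%) lay between 2 and 4 kb, or 29.5 for each kb, against 18 for each kb from 4 to 10 kb. Gaps of 4 to 10 kb made up 40.4% in pairs and 47.0% in loci of 3 or more, and the intervals overlapped for both classes. No pair held overlapping intervals, and in 30 pairs the gap was shorter than the narrower peak itself.

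**Figure D1:**
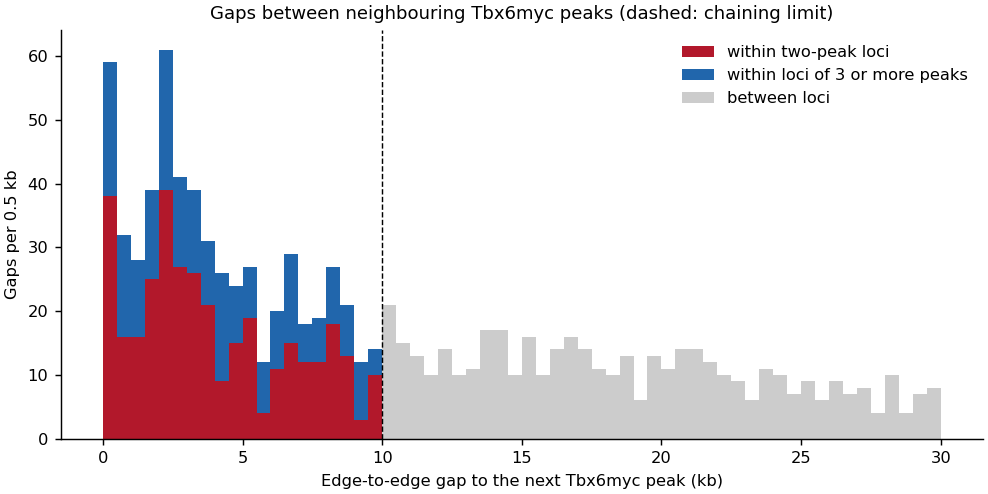
Number of gaps in bins of 0.5 kb against the edge-to-edge gap (kb) to the next Tbx6myc peak, stacked by where the gap lies: red within pairs, blue within loci of 3 or more peaks, grey between loci. Pairs are most frequent up to 0.5 kb (38 pairs) and between 2 and 4 kb (113 pairs), and the dashed line marks the 10 kb limit that defines them.

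The limit of 10 kb fell within a continuous run of distances. Just inside it lay pairs with gaps of 9989 bp on chromosome 13 (13177135 to 13188167), 9961 bp on chromosome 12 (28712074 to 28723603), 9871 bp on chromosome 7 (22150017 to 22160792), 9851 bp on chromosome 13 (2767075 to 2777734) and 9797 bp on chromosome 21 (19385658 to 19397122). Just outside it lay neighbours with gaps of 10019 bp on chromosome 3, 10028 bp on chromosome 22, 10034 bp on chromosome 5, 10035 bp on chromosome 3 and 10045 bp on chromosome 7. All of these outside neighbours counted as single peaks. Their score ratios ran from 1.18 to 2.53, and those of the 5 pairs just inside from 1.11 to 4.89.

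Among the strongest pairs, several held a pair of high-scoring peaks of similar score. The pair with the highest weaker peak lay on chromosome 22, where a peak at 26651806 to 26652594 scored 777 and one at 26656790 to 26657792 scored 839, separated by 4195 bp. The nearest other peak was 143 kb away. On chromosome 3 a peak at 41899733 to 41900254 scored 661 and its partner at 41900288 to 41901222 scored 892, with only 33 bp between them. The pair on chromosome 20 was also close, with scores of 619 at 28425130 to 28425597 and 658 at 28425665 to 28426267 and a gap of 67 bp. These intervals nearly touch, and whether each is a separate site or a piece of a longer enriched stretch was not tested.

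Wider spacing was also found among pairs in which both peaks scored high. On chromosome 23 the scores were 539 at 44471754 to 44472404 and 620 at 44473192 to 44473798, 787 bp apart. On chromosome 8 they were 496 at 54433462 to 54433974 and 536 at 54437932 to 54438519, 3957 bp apart. On chromosome 7 they were 885 at 48516005 to 48516716 and 483 at 48519335 to 48519944, 2618 bp apart. The pair on chromosome 21 with the gap of 9797 bp scored 452 and 832. Of the 8 pairs with the highest weaker peak, 5 had a score ratio below 1.5, against 170 of all 349 pairs (48.7%). Choosing pairs by their weaker peak itself favours low ratios, so this count does not show that strong pairs are more even.

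Other strong pairs joined a high-scoring peak to one with a much lower score. The highest-scoring paired peak, 1686, was at 23525754 to 23526413 of chromosome 23, and its partner 7609 bp away at 23517682 to 23518144 scored 475. This was the only pair among both the 8 with the highest stronger peak and the 8 with the highest weaker peak. On chromosome 4 a broad peak of 1537 bp at 10645842 to 10647378 scored 1197, and its partner of 414 bp at 10650809 to 10651222 scored 275. On chromosome 7 a peak at 30807807 to 30808352 scored 1177, and the one at 30803656 to 30804240 scored 194. The pair on chromosome 14 at 33757237 to 33761254 had scores of 200 and 1013. Chromosome 1 held 2 such pairs, next to each other and 374 kb apart. At 6815752 to 6819934 the scores were 246 and 1056, and at 6439851 to 6441928 they were 363 and 981.

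**Figure D2:**
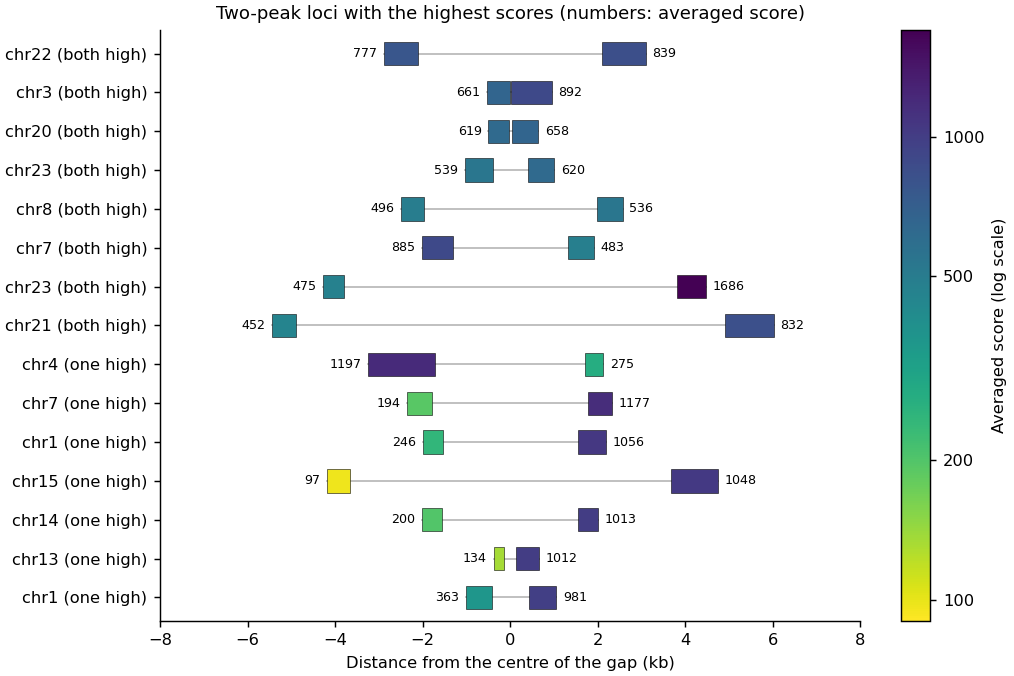
The 15 pairs with the highest weaker peak ("both high") or the highest stronger peak ("one high"), each drawn to scale around the centre of its gap (kb) with the averaged score printed beside each peak and shown by colour on a log scale. The pair on chromosome 23 with a score of 1686 belongs to both sets, and gaps run from 33 bp on chromosome 3 to 9797 bp on chromosome 21.

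Within a pair the stronger peak typically scored about 1.5 times the weaker. The median ratio was 1.52 (interval 1.43 to 1.67, 349 pairs), with quartiles of 1.18 and 2.28. The stronger peak had a median score of 282 and the weaker one of 158. In 54 pairs (15.5%) the ratio was under 1.1 and in 170 (48.7%) under 1.5. In 107 pairs (30.7%, interval 26.1 to 35.7%) the stronger peak scored at least 2 times the weaker, in 48 at least 3 times and in 24 at least 4 times. The list has a lower limit near a score of 94, so a partner below it is not seen and the largest ratios are bounded by that limit. The stronger peak was the one at the higher coordinate in 179 pairs (51.3%, interval 46.1 to 56.5%) and the one at the lower coordinate in 170.

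The most uneven pair was on chromosome 15, where a peak at 309185 to 310257 scored 1048 and its partner at 301325 to 301851 scored 96.5, a ratio of 10.9. On chromosome 13 the scores were 1012 and 134 at 4087629 to 4088669, with a gap of 277 bp. On chromosome 22 they were 823 and 119 at 19885621 to 19889345. On chromosome 17 they were 835 and 123 at 10667613 to 10668759, with a gap of 167 bp. On chromosome 8 they were 621 and 95.4 at 29188562 to 29196370. Unequal partners thus occurred both at short and at long gaps.

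At the other end, some pairs matched almost exactly. With both scores at or above the list's median of 190, the closest match was on chromosome 13 at 24228164 to 24229969, with scores of 206.2 and 206.5 and widths of 443 and 452 bp. Next came the tightest pair of all, on chromosome 24 at 14413089 to 14413765, with scores of 291.1 and 289.6 and a gap of 16 bp. The pair on chromosome 14 at 33818547 to 33821836 scored 238.5 and 240.4, with widths of 531 and 545 bp. On chromosome 5 at 26039447 to 26043633 the scores were 316 and 321, and both peaks were about 1 kb wide, at 1019 and 1070 bp. The fifth, on chromosome 14 at 18544474 to 18547846, scored 202 and 199.

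Set against the list's median score, 163 pairs (46.7%, interval 41.5 to 51.9%) joined a peak at or above it to one below it. Among neighbouring peaks of different loci (3174 gaps) that share was 48.0%, which lies within the interval. These neighbours include peaks of pairs and of larger loci where they face another locus, so they are no separate background. In 113 pairs (32.4%) both peaks reached the median, against 23.9% of those neighbours, and in 73 pairs (20.9%) neither did, against 28.1%. Both peaks reached the list's upper quartile of 284 in 41 pairs (11.7%), against 5.89% of the neighbours. At least 1 peak did so in 172 pairs (49.3%), against 39.6% of the neighbours. Paired peaks as a whole scored higher than single peaks, with median scores of 205 and 182. A higher level alone raises the shares with both peaks, or at least 1, above a cut. These shares therefore do not show that high peaks are paired with each other.

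**Figure D3:**
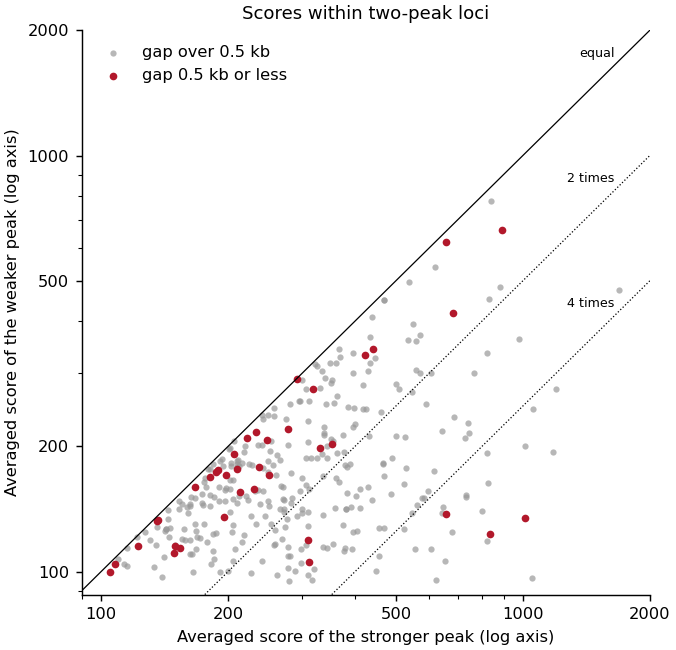
Averaged score of the weaker against the stronger peak of each of 349 pairs, on log axes, with lines for equal scores and for ratios of 2 and 4. Red points are the 38 pairs with a gap of 0.5 kb or less, of which 5 lie at a ratio of 2 or more, and grey points are the other 311 pairs, of which 102 do.

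Scores were most alike at the shortest gaps and showed little correlation beyond them. In the 38 pairs with a gap of 500 bp or less, the median ratio was 1.27 (interval 1.08 to 1.35), and 5 of them (13.2%, interval 5.75 to 27.3%) reached a ratio of 2. Of these 38, 14 had a ratio under 1.1. In the 311 pairs with longer gaps the median ratio was 1.63 (interval 1.49 to 1.75), 102 (32.8%, interval 27.8 to 38.2%) reached a ratio of 2, and 40 were under 1.1. By distance, the median ratio was 1.69 from 0.5 to 2 kb (57 pairs), 1.66 from 2 to 4 kb (113 pairs), 1.58 from 4 to 7 kb (73 pairs) and 1.52 from 7 to 10 kb (68 pairs). These intervals all overlapped, as the plot of score balance by distance shows.

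Over the same classes, Spearman's rho between the score at the lower and at the higher coordinate was 0.42 over the 38 pairs with the shortest gaps and 0.026 over the other 311. It was 0.070 over all 349. These values of rho carry no interval. All points share the same libraries and the same caller, and the shortest-gap pairs share adjoining sequence. Each score is also an average over merged libraries, and how neighbouring intervals were matched in the merging is not given here. Whether the lower ratio and the higher rho at the shortest gaps rest on that merging was not tested.

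Neighbouring peaks that lay too far apart to form a pair had median ratios between 1.52 and 1.59. They include peaks of pairs and of larger loci where these face another locus. At gaps of 10 to 20 kb the median ratio was 1.59 (interval 1.46 to 1.71, 261 neighbours) and 35.2% reached a ratio of 2. At 20 to 50 kb it was 1.52 (438 neighbours), at 50 to 200 kb 1.54 (887 neighbours), and beyond 200 kb 1.53 (1588 neighbours), where 28.8% reached a ratio of 2. Next neighbours up to 500 bp apart inside loci of 3 or more had a median ratio of 1.30 (interval 1.11 to 1.48, 21 neighbours). The other 209 next neighbours inside such loci had the highest median ratio of the classes measured, 1.74 (interval 1.52 to 1.85), and 40.7% of them reached a ratio of 2.

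**Figure D4:**
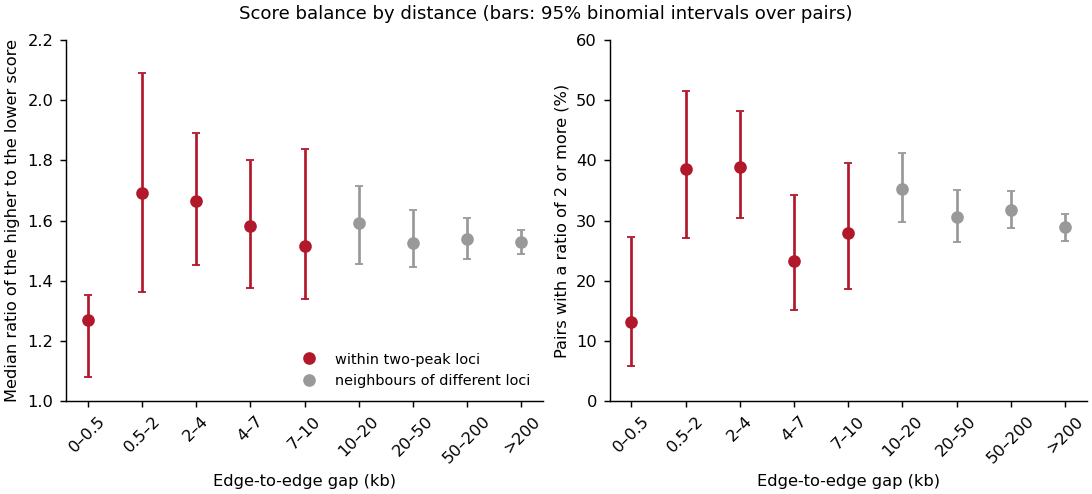
Median ratio of the higher to the lower score (left) and percentage with a ratio of 2 or more (right) against the edge-to-edge gap (kb), with 95% binomial intervals over pairs or neighbouring gaps as bars. Red points are pairs and grey points are neighbouring peaks of different loci, which can themselves belong to pairs. The class up to 0.5 kb has the lowest median, 1.27, and the other classes lie between 1.52 and 1.69.

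In most pairs the stronger peak was also the wider one. This held in 230 of 349 pairs (65.9%, interval 60.8 to 70.7%), the weaker peak was wider in 118, and both had the same width in 1. Where the stronger peak scored at least 2 times the weaker it was wider in 86 of 107 pairs (80.4%), and where the ratio was under 2 in 144 of 242 (59.5%). Over all 698 paired peaks, Spearman's rho between score and width was 0.50, against 0.42 over the 2752 single peaks. Both measures come from the same read pile, so they are not independent. A matching share for neighbours of different loci is not given here, so the share of 65.9% is not shown to be particular to pairs.

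The wider peak had a median of 580 bp and the narrower one of 440 bp, and the median width ratio was 1.30 (interval 1.28 to 1.34), against 1.33 for neighbouring peaks more than 200 kb apart. A width ratio of 2 or more was found in 38 pairs (10.9%). It was found in 9 of the 38 pairs with a gap of 500 bp or less (23.7%, interval 13.0 to 39.2%) and in 29 of the other 311 (9.32%, interval 6.57 to 13.1%), and these intervals overlapped slightly. The narrower peak of the shortest-gap pairs had a median of 353 bp. From the start of the first peak to the end of the second, these pairs spanned a median of 1144 bp. Their summed widths had a median of 881.5 bp, and single peaks had a median width of 474 bp. A span or a sum covers 2 peaks, so setting it beside 1 width does not show whether close pairs are split peaks.

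The extremes of width were of different kinds. In 3 pairs, all with gaps under 100 bp, 1 peak was narrower than 100 bp. On chromosome 23 an interval of 98 bp at 33107408 to 33107505 scored 419 beside one of 1159 bp at 33107585 to 33108743 that scored 685, the largest width ratio of the 349 pairs, 11.8. On chromosome 10 an interval of 96 bp at 27855793 to 27855888 scored 216 beside one of 731 bp that scored 233. On chromosome 8 an interval of 61 bp at 27614379 to 27614439 scored 114 beside one of 267 bp that scored 154. All 3 narrow intervals were shorter than the library fragments, which were near 250 bp. Whether they are sites apart from their partners was not tested. That peak of 1159 bp was also the fifth among the pairs with the broadest peaks, and the other 4 had gaps from 1667 to 3430 bp. After the peak of 1537 bp on chromosome 4 came one of 1530 bp on chromosome 23 at 23741941 to 23743470, with a score of 289 and a partner of 455 bp that scored 100.1. Peaks of 1235 bp on chromosome 14 at 33549163 and of 1200 bp on chromosome 3 at 36701797 followed, with scores of 822 and 526.

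Some pairs were repeated, in full or in part, elsewhere on the same chromosome. Of the 698 paired peaks, 13 had a twin of identical width and identical score elsewhere in the list, and they belonged to 9 pairs. Over all 3997 deposited peaks 50 had such a twin, so twins were not particular to pairs. On chromosome 25 a pair at 35202793 to 35206585 scored 468 and 449 with widths of 743 and 930 bp and a gap of 2120 bp. A second pair whose start lay 27.6 kb further on, at 35230394 to 35234186, had the same scores, widths and gap. Another pair, which started at 35186125 and ended 13.2 kb before the first, scored 395 and 299.5 with a gap of 2157 bp. On chromosome 14 the repeat was mirrored. The pair at 34981277 to 34985805 scored 141 and then 381, and the pair at 35062912 to 35067436 scored 381 and then 141, with gaps of 3602 and 3598 bp. Near matches with unequal scores are not among the 9 pairs. On chromosome 12, the pair at 49575754 to 49577092 had widths of 289 and 287 bp, scores of 166 and 202.5 and a gap of 763 bp. The pair at 49655235 to 49656567 had widths of 287 and 289 bp, scores of 210.4 and 178.3 and a gap of 757 bp.

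A pair on chromosome 16 and a pair on chromosome 22 were repeated in part. On chromosome 16 the pairs at 16162654 and 16692787, 530 kb apart, both began with a peak of 522 bp that scored 113. Their second peaks were both 504 bp wide but scored 298 and 393, and the gaps were 1578 and 1555 bp. On chromosome 22 the pairs at 26380518 and 26504636, 124 kb apart, both ended with a peak of 379 bp that scored 156. Their first peaks were 438 and 519 bp wide and scored 242 and 232, with gaps of 3483 and 3377 bp. The next locus along chromosome 22 was the pair that scored 777 and 839. The ninth pair, on chromosome 6 at 3739282 to 3741781, had a twin of its second peak 55.3 kb away as a single peak. Sequence at these loci was not compared, so whether reads were shared between copies was not tested, and each such set may count 1 signal more than once.

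**Figure D5:**
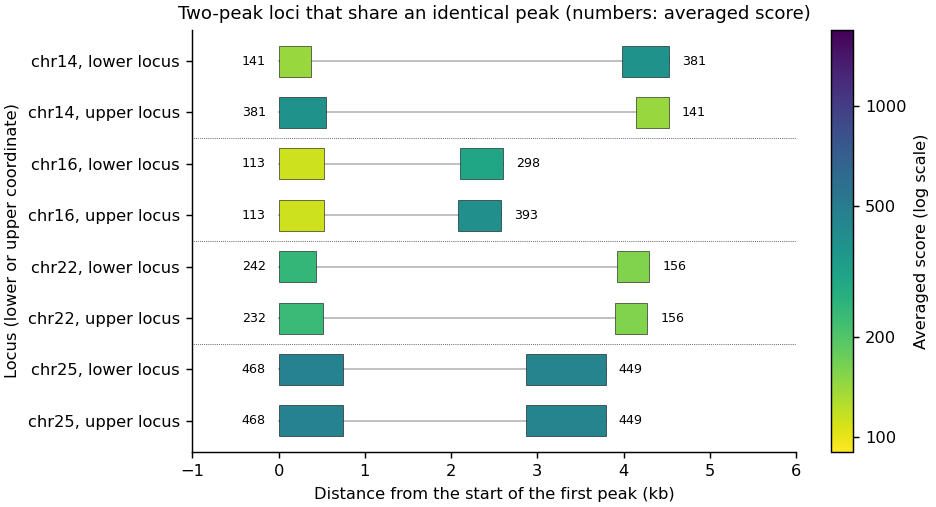
The 8 pairs that share a peak of identical width and score with another pair, drawn to scale from the start of the first peak (kb), with averaged scores printed and shown by colour on a log scale. The pairs on chromosome 25 match fully, those on chromosome 14 are mirrored, and those on chromosomes 16 and 22 share 1 peak of identical width and score.

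Pairs were found on all 25 numbered chromosomes, from 8 on chromosomes 16 and 17 to 25 on chromosome 13. As a share of a chromosome's kept peaks, paired peaks ran from 10.7% on chromosome 16 (interval 6.67 to 16.6%) to 31.5% on chromosome 9 (interval 24.5 to 39.4%), with 28.6% on chromosome 14 and 25.0% on chromosome 13. The peaks of a pair are chosen together, so these intervals are too narrow. The median score ratio of a chromosome's pairs was lowest on chromosome 24, at 1.16 over 11 pairs, and highest on chromosome 19, at 2.19 over 12 pairs. These are the extremes of 25 medians over few pairs each and carry no interval, so they do not show a difference between chromosomes.

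Many pairs had further Tbx6myc peaks in reach. The nearest other kept peak was within 20 kb for 88 pairs (25.2%) and within 50 kb for 178 (51.0%), and more than 200 kb away for 64 (18.3%). The median distance was 47.2 kb. Matching shares for single peaks and larger loci are not given here. These distances therefore describe the pairs and do not show that pairs lie closer to further peaks than other loci do. The nearest locus was itself a pair for 62 of the 349 (17.8%, interval 14.1 to 22.1%), while pairs made up 10.9% of all 3199 loci. Of these 62, 44 were each other's nearest locus and count from both sides, so the interval is too narrow, and the same positions formed the pairs. It held 3 or more peaks for 16 pairs (4.58%), while such loci made up 3.06% of all. In 7 places 3 pairs followed each other with no other locus between them, and in 2 places 4 did. The shortest such run covered 48.1 kb of chromosome 25 and includes its repeated pairs. Runs of 3 from 34981277 of chromosome 14 and 26380518 of chromosome 22 also include pairs that share an identical peak. Such pairs enter the count of 62 as well. Another run of 3 covered 57.4 kb of chromosome 13 from 34017729, while the run on chromosome 14 from 34981277 covered 2229 kb. The runs of 4 covered 524 kb of chromosome 11 from 6149833 and 1164 kb of chromosome 12 from 27559112. In 31 further places 2 pairs followed each other. Pairs in a run are thus consecutive but need not be close, and no matching count for other loci is given here. The most remote pair, on chromosome 8 at 926014, scored 310 and 98.1, and its nearest other kept peak was 1926 kb away. No kept peak came before this pair on the chromosome, so that distance was measured on 1 side only.

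Paired peaks stood between single peaks and larger loci in score. Their median score was 205 (interval 195 to 213, 698 peaks), against 244 (224 to 262) for the 328 peaks in loci of 3 or more and 182 (178 to 186) for the 2752 single peaks. Median widths were 506 bp for paired peaks, 513.5 bp in loci of 3 or more and 474 bp for single peaks. Of the 100 highest-scoring kept peaks, 27 were paired, 21 lay in loci of 3 or more and 52 were single. Over all kept peaks these classes held 18.5%, 8.68% and 72.8%. Scores and positions come from the same peak calls, so these values are a description of the list.

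The distances of pairs and of single peaks to wild-type background had overlapping intervals, and the wild-type list held few pairs of its own. The nearest wild-type peak was a median of 2693 kb from a pair (interval 2208 to 3314 kb) and 2472 kb from a single Tbx6myc peak (interval 2304 to 2604 kb). A wild-type peak lay within 50 kb of 5 pairs (1.43%) and of 53 single peaks (1.93%). The closest, 7.50 kb away, was by a pair on chromosome 4 at 13040589 that scored 328 and 368. With the same 10 kb limit, the 240 wild-type peaks on numbered chromosomes formed 12 pairs. Pairs held 18.5% of the kept Tbx6myc peaks (interval 17.3 to 19.7%) and 10.0% of these wild-type peaks (interval 6.81 to 14.4%). Both intervals count the peaks of a pair apart and are too narrow. The shares are not a comparison of binding, since the lists differ in length and depth is unknown. In the Tbx6myc pairs the median gap was 3233 bp and the median score ratio 1.52. In the wild-type pairs the median gap was 734 bp (interval 633 to 2774 bp) and the median score ratio 1.06 (interval 1.01 to 1.86). Of these wild-type pairs, 2 were alike in every value, with widths of 1087 and 1241 bp, scores of 189.8 and 200.6 and a gap of 633 bp. Another, on chromosome 7 at 51720845, held 2 peaks of equal width and score, 354 bp and 101.2. Several wild-type pairs had low scores, such as 99.1 and 99.7 on chromosome 4. Wild-type scores also rest on 1 ChIP library and are not averages, so the gaps and ratios of the lists are not a comparison of binding either.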

How the data were processed

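Anti-myc ChIP peaks of transgenic and of wild-type embryos were available as 1 list each. Per the submitters' processing notes, Bowtie and the build Zv9 (danRer7) were used. For the peak caller and the threshold, the sources used here give no name or value. Per the file headers, the deposited score is −10 log10 of each peak's p-value, and the transgenic list holds an average. Library fragments were near 250 bp after 15 PCR cycles, per the labels' protocols. Peaks on numbered chromosomes that shared no base pair with a wild-type peak were sorted by start and joined at gaps of 10000 bp or less, with Python 3.11.15, pandas 2.3.3 and SciPy 1.17.1. Medians carry exact order-statistic and shares Wilson 95% intervals. No significance test was made, since each group has 1 list and the members come from it. The pair finder recovered planted pairs in simulated lists. The members, the lists and the naming rules were chosen with earlier results of these data known. Loci were named by rules on their scores, score ratios, gaps, widths and identical peaks. The pair at 35186125 of chromosome 25 and the near match on chromosome 12 were chosen after their values were seen. So were the runs of pairs, the most remote pair, the pair nearest a wild-type peak and the named wild-type pairs. No Zv9 sequence or annotation was used, so the planned motif and gene descriptions were not made.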

Additional observations from a re-analysis of the deposited data

How the results depend on the processing

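Of the 72 alternative values computed, 63 stayed within the interval of the reported median or share or, for the number of pairs, within 1.5 times it. With a chaining distance of 5000 bp the median gap was 2277 bp and the median score of paired peaks 220, and with 20000 bp the median gap was 6361 bp, since the distance bounds the gap. With only peaks at or above the list's median score there were 149 pairs, with a median ratio of 1.40, a median score of 317 and 21.5% of pairs at a ratio of 2 or more, since fewer peaks and no low scores remain. With 1.5 or 3 in place of 2 as the ratio, 51.3% or 13.8% of pairs counted as uneven. Joining peaks within 500 bp left 323 pairs with a median ratio of 1.63. Leaving out 1 of each set of identical peaks left 345 pairs. The width ratio (1.28 to 1.32) and the share of pairs whose stronger peak was wider (63.8 to 67.0%) stayed within their intervals in all 10 alternatives each. No paired analysis was possible because there is only 1 list for transgenic and 1 for wild-type embryos. Depth is unknown, so a partner below the caller's threshold is not seen.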

Other observations

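Outside the numbered chromosomes, the 175 Tbx6myc peaks on unplaced scaffolds that met no wild-type peak formed 16 further pairs, holding 18.3% of them. Their median score ratio was 1.49 (interval 1.16 to 2.36), and 5 of the 16 reached a ratio of 2. Their median gap was 4047 bp, with quartiles of 353 and 5268 bp. The highest score among them was 692, on scaffold Zv9_NA48, with a partner 6355 bp away that scored 191. Scaffold ends cut off neighbours, so the number of peaks in these loci can be too low.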
